A study of Mus musculus with 6 samples.

Results

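The genes described here build cholesterol, control its synthesis through the transcription factor SREBP2, or move lipoproteins and sterols into and within the cell. They are 28 named genes, taken as a list of pathway members: 20 enzymes in the order in which they act from acetyl-CoA to cholesterol, 6 genes of the SREBP2 control machinery, and the transport genes Lrp8 and Stard4. Probes carrying their names were picked from the non-control probes of the arrays, with the older names Sc4mol and Sc5dl counted for Msmo1 and Sc5d. That gave 62 of 56605 probes and 27 of the 28 genes, and all 27 were among the 19503 genes tested. The expression of Acat2, the thiolase that starts the route, was not analysed here.

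The series profiled mouse bone marrow monocytes, the circulating precursors of macrophages, on 1-colour Agilent arrays of total RNA. Monocytes of C57BL/6J mice aged 6 to 8 weeks were purified with magnetic beads and kept for 60 h in M-CSF (20 ng/mL), the cytokine under which monocytes mature into macrophages. The 3 control samples received M-CSF alone, and the 3 IFN-beta samples received M-CSF with IFN-beta, an interferon of type I, at 100 U. Replicates are numbered, but the labels do not say whether they came from separate mice or cultures, so p-values measure only the spread between these samples.

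Cholesterol is built in the cytosol and endoplasmic reticulum from acetyl-CoA through mevalonate, the isoprenoid diphosphates, squalene and lanosterol. When sterol in the endoplasmic reticulum is low, SCAP escorts SREBP2 to the Golgi, where the site-1 and site-2 proteases release a fragment that enters the nucleus and switches on nearly every gene of the route. When sterol is plentiful, the INSIG proteins hold SCAP and SREBP2 back. In macrophages this route is known as a target of interferon signalling, partly through oxysterols, which also act on SCAP, INSIG and the LXR receptors.

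All levels below are log2 signal minus the 75th percentile of the array, so 0 is the level of that percentile, and a level is compared between arrays for the same probe only. The 75th percentile was 549, 528 and 305 signal units on controls 1, 2 and 3, and 236 to 244 with IFN-beta. On controls 1, 2 and 3, 63.9%, 63.3% and 52.5% of probes lay well above background, against 49.0% to 52.5% with IFN-beta. The treatment was visible on every IFN-beta array: all 8 interferon-stimulated genes of a fixed list (such as Ifit1, Mx1 and Isg15) rose, and their median level was 1.19, 1.09 and 1.80 on controls 1, 2 and 3 against 5.78, 5.69 and 5.82 with IFN-beta. The 10 monocyte and macrophage markers were above background on all 6 arrays. Control 3 stood apart from controls 1 and 2. Across genes it was closer to the IFN-beta arrays (Pearson's r from 0.9635 to 0.9656) than to controls 1 and 2 (0.9568 and 0.956). The 17 fibroblast and connective tissue markers were above background on controls 1 and 2 in all cases, but only 6 were on control 3 and 7 or 8 on the IFN-beta arrays. For that reason the members' counts are given against all 3 controls and against control 3 on its own, and any named gene that lost or gained its call against control 3 is pointed out. Controls 1 and 2 were the closest pair of arrays (Pearson's r = 0.9936 across genes), and the labels do not say whether they came from 1 culture. Counted as 1 sample they would leave 2 controls, and 8 members would then pass as lower in place of 16: Hmgcs1, Mvd, Idi1, Fdft1, Sqle, Cyp51, Tm7sf2 and Stard4.

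Cholesterol genes were lower with IFN-beta over most of the pathway. Of the 27 members, 16 fell and none rose at an adjusted p of 0.05 (limma, Benjamini-Hochberg over all genes tested, 2-sided, n = 3 per group), while 19.8% of all genes tested were called, 8.02% lower and 11.8% higher. On the log2 scale 23 of 27 members were below 0, with a median fold change of -0.80 and a range from -1.88 for Nsdhl to 0.70 for Lrp8. Without IFN-beta 3 Nsdhl was at -1.24 and Tm7sf2, at -1.80, was the lowest. The median over all genes was 0.10. Every IFN-beta array lay below every control array for 20 of the 27 members, against 16.8% of all genes, and the reverse held for none, against 23.4%. In RNA from whole cultures, fewer cells of a type and less RNA per cell cannot be told apart.

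**Figure D1:**
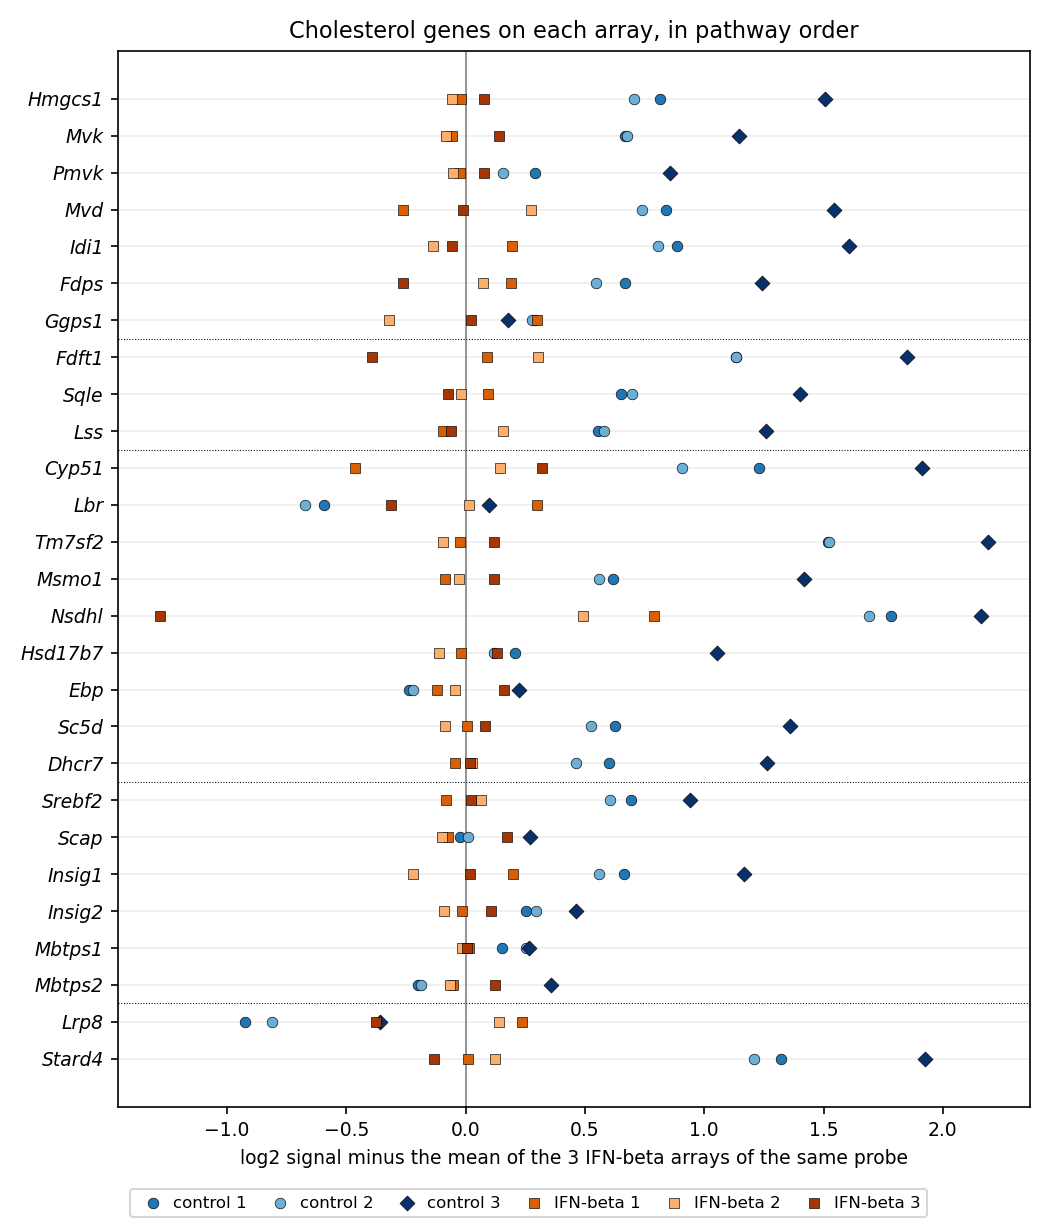
Level of each cholesterol gene on each array (x axis, log2 signal minus the mean of the 3 IFN-beta arrays for the same probe; y axis, genes in pathway order; dotted lines part the mevalonate steps, the squalene steps, the lanosterol steps, SREBP2 control and transport). Points are single arrays; control 3, the diamond, is the highest of the 6 arrays for 24 of 27 genes, and the IFN-beta squares lie left of all control points for 20.

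Enzymes made up 19 of the 27 members tested and 13 of the 16 that fell, with a median of -0.84. By step, 5 of 7 fell in the mevalonate steps, 3 of 3 around squalene and 5 of 9 from lanosterol to cholesterol. In the control group 2 of 6 fell (median -0.28). Whether the groups differ was not tested.

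The calls rested on few arrays. Without 1 array at a time the number of members that fell was 4 (without control 1), 7 (control 2), 16 (control 3), 5 (IFN-beta 1), 3 (IFN-beta 2) and 5 (IFN-beta 3), and only Fdft1, Tm7sf2 and Stard4 passed in all 6 of these fits (highest adjusted p 0.0466, 0.0133 and 0.0217). Mvk, Fdps, Sqle, Lss, Msmo1, Sc5d, Srebf2 and Insig1 passed only without control 3 and lost the call without any other array. Hmgcs1 and Mvd lost it without control 1 or any IFN-beta array, Idi1 without IFN-beta 2 or 3, Cyp51 without control 1, IFN-beta 1 or IFN-beta 2, and Nsdhl without any control or IFN-beta 2. The highest adjusted p that any of these 13 reached was 0.153, for Fdps. Controls 1 to 3 and IFN-beta 1 shared a slide. That slide sets 1 IFN-beta array against 3 controls. All 16 genes were below 0 within it, but this had to be so and is no separate check. For each of the 16, every IFN-beta array lay below every control. With slide as a block, which takes its difference from the same slide, only Tm7sf2 passed (adjusted p = 0.0369). With the replicate number as a block, 10 members fell, and Fdps, Sqle, Lss, Nsdhl, Sc5d and Insig1 lost the call.

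Promoter sequences of the members were read from a table of RefSeq promoters (build GRCm38.p6), in which 24 of the 28 genes were matched, with 32 promoters. The promoters of Sqle, Fdft1, Fdps and Stard4 were not analysed here. In the 250 bases before the start, 3 motifs were sought on both strands: the core of the sterol regulatory element (SRE), TCACNCCAC, to which SREBP binds; a looser form lying within it, CACNCCAC; and CCAAT, the box of NF-Y, a factor that works with SREBP at many sterol promoters. After the sequences were seen, TCACNCC, which is the SRE core without its last bases, was added. Shown are Hmgcs1, the only member with the full core, at chr13:119690102-119690322 on the plus strand; and, chosen after their values were seen, Srebf2 (chr15:82147095-82147150, plus strand), Insig1 (chr5:28071184-28071411, plus strand) and Tm7sf2 (chr19:6067853-6067937, minus strand). Each runs 5′ to 3′ towards the start, and capitals mark motif matches, a CCAAT on the opposite strand reading as ATTGG.
Hmgcs1: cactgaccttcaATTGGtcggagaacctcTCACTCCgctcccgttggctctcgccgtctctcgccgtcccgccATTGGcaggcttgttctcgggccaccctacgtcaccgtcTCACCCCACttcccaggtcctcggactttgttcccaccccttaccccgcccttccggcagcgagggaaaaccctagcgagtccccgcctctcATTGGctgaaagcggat
Srebf2: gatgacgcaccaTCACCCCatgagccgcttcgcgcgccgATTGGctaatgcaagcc
Insig1: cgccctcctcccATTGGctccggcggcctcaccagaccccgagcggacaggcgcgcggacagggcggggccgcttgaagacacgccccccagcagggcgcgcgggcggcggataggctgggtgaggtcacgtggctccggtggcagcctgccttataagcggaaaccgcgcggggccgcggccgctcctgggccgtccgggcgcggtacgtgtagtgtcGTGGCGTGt
Tm7sf2: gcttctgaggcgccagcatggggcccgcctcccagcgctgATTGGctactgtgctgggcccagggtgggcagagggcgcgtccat

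The full SRE core of Hmgcs1, TCACCCCAC, begins 137 bases before the start, with matches to the NF-Y box on both sides, at 176 and 45 bases. In the Srebf2 promoter a TCACCCC begins 162 bases before the start, with an NF-Y box at 135. The full core was in 1 of 32 member promoters (3.12%) and 1.05% of all 32851 promoters, the looser core in 3 (9.38% against 5.29%; Acat2, Hmgcs1 and Insig1), and the shortened core in 6 (18.75% against 13.36%). The NF-Y box was in 19 of 32 member promoters (59.38%) and in 33.85% of all promoters. By gene, 12 of the 12 members that fell and had a promoter in the table held a CCAAT, as did 7 of 11 members that did not pass. Single-promoter genes make up the first group, whereas some of the second have several promoters, and letters in a window are no evidence of binding. A CCAAT was in 35.25% of the promoters of genes tested, and the share by gene over all genes was not computed. Whether the box goes with the fall was not tested.

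The mevalonate steps turn acetyl-CoA into isoprenoid diphosphates, and 5 of their 7 tested genes fell. Hmgcs1, which condenses acetyl-CoA and acetoacetyl-CoA to HMG-CoA, stood at 4.75, 4.65 and 5.45 on controls 1, 2 and 3, and at 3.92, 3.88 and 4.02 on IFN-beta arrays 1, 2 and 3. All controls were above all IFN-beta arrays, with control 3 highest. The difference was -1.01 ± 0.23 (SE), or 2.01-fold lower (adjusted p = 0.0232), and -1.51 against control 3 alone (adjusted p = 0.00905). Its probe lies on an unplaced part of chromosome 13 in the files' build, mm9. The part of a gene in which each probe lies was not analysed here.

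Mvk, the kinase that adds the first phosphate to mevalonate, stood at 3.62, 3.63 and 4.09 in controls and 2.89, 2.87 and 3.09 with IFN-beta, and fell by 0.83 ± 0.19 (adjusted p = 0.0224). Its second probe was at -0.38 ± 0.23 (adjusted p = 0.276 over all probes), and the mean of both probes, at -0.60, did not pass (adjusted p = 0.0733). Pmvk, the next kinase, stood at 3.78, 3.65 and 4.35 against 3.46, 3.44 and 3.57. Its IFN-beta arrays were all lower, but the difference of -0.44 did not pass (adjusted p = 0.185), whereas its other probe, at -0.67 ± 0.19, was called lower (adjusted p = 0.0407 over all probes). Mvd, which decarboxylates the diphosphate to isopentenyl diphosphate, stood at 1.11, 1.01 and 1.82 against 0.01, 0.55 and 0.26, and fell by 1.04 ± 0.26 (adjusted p = 0.0297). Idi1, which interconverts the isopentenyl and dimethylallyl forms, stood at 3.52, 3.44 and 4.24 against 2.83, 2.499 and 2.58. The difference of -1.10 ± 0.25 (adjusted p = 0.0201) was the largest of these steps, and it was -1.61 against control 3.

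The step ends at a branch point. Fdps, which makes the farnesyl diphosphate used for both sterols and prenyl groups, stood at 4.68, 4.56 and 5.25 against 4.20, 4.08 and 3.75, and fell by 0.82 ± 0.23 (adjusted p = 0.0463). Ggps1, which lengthens farnesyl diphosphate to the geranylgeranyl form and so leads away from cholesterol, stood at 1.81, 1.80 and 1.69 against 1.82, 1.20 and 1.54. Its groups overlapped, the difference was -0.25 ± 0.20 (adjusted p = 0.399), and it was the only member on which control 3 was lower than the mean of controls 1 and 2. The other tested probes of Ggps1 ran from -0.36 to 0.50.

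All 3 genes that commit farnesyl diphosphate to sterols fell, with a median of -0.92. Fdft1, squalene synthase, stood at 3.11, 3.11 and 3.82 in controls and 2.06, 2.28 and 1.58 with IFN-beta. It fell by 1.37 ± 0.27 (2.59-fold, adjusted p = 0.0126), and -1.85 against control 3 (adjusted p = 0.0191). Sqle, the epoxidase that is a second slow step of the route, stood at 3.97, 4.01 and 4.72 against 3.41, 3.30 and 3.24 and fell by 0.92 ± 0.23 (adjusted p = 0.0303). Both genes had no overlap between groups. Lss, which closes the rings to lanosterol, stood at 1.91, 1.94 and 2.61 against 1.26, 1.51 and 1.30 and fell by 0.80 ± 0.23 (adjusted p = 0.0462). Its probes disagreed: another tested probe was at -2.11 ± 0.22, and a further one at 1.74 ± 1.72, which was above background on only 2 of 3 controls. The mean of the tested Lss probes, at -0.39, did not pass (adjusted p = 0.708).

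**Figure D2:**
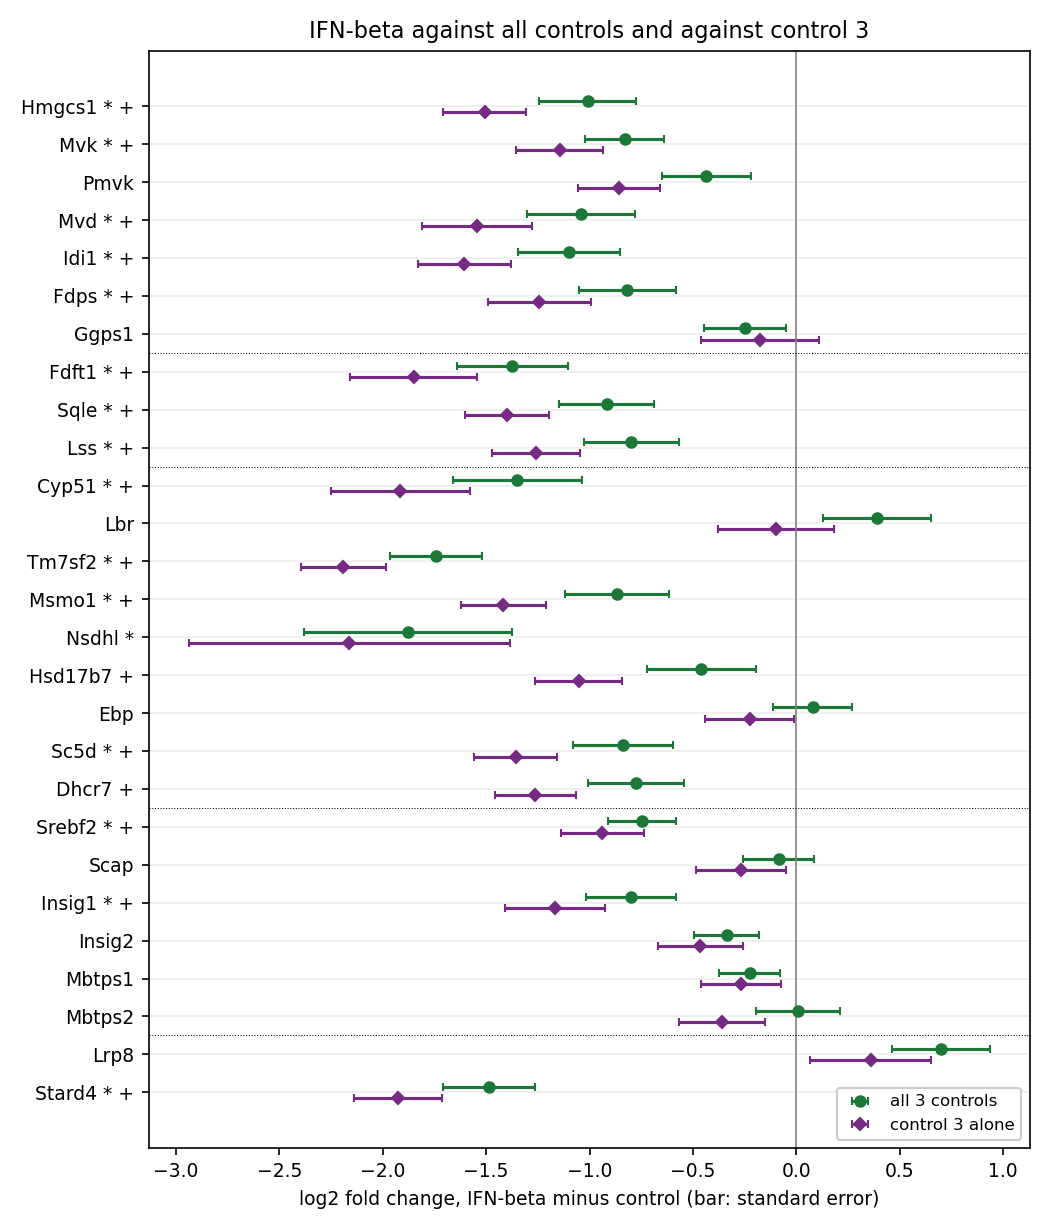
Log2 fold change of each cholesterol gene, IFN-beta minus control (x axis; bars are standard errors), with all 3 controls (circles) and with control 3 alone (diamonds); * marks an adjusted p under 0.05 with all controls and + with control 3. For every gene but Ggps1 the diamond lies left of the circle, and 16 genes carry * and 17 carry +.

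Between lanosterol and cholesterol 5 of 9 genes fell, and these steps held both the largest differences of the members and a pair of genes above 0. Tm7sf2 and Lbr encode a pair of enzymes able to carry out the same reduction of the sterol ring, and they were on opposite sides of 0. Tm7sf2 (probe at chr19:6062882-6062941, mm9) stood at 2.03, 2.04 and 2.71 against 0.49, 0.42 and 0.63. It fell by 1.74 ± 0.22, 3.35-fold, with the lowest adjusted p of the members (0.00192), and the difference was -2.19 against control 3 (adjusted p = 0.00325). Its other probe was at -1.73. Lbr, which is also an anchor of chromatin at the nuclear envelope, stood at 4.43, 4.35 and 5.13 against 5.33, 5.04 and 4.71. Controls 1 and 2 were below the IFN-beta arrays and control 3 was not, so that the difference was 0.39 ± 0.26 (adjusted p = 0.321) with all controls, -0.10 against control 3, and 0.63 without control 3 (adjusted p = 0.0398).

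Cyp51, the demethylase that first acts on lanosterol, stood at 2.23, 1.91 and 2.92 against 0.54, 1.15 and 1.33 and fell by 1.35 ± 0.31 (adjusted p = 0.0225). Msmo1 and Nsdhl take off the next methyl groups, the first by oxidation and the second by decarboxylation. Msmo1 stood at 5.10, 5.04 and 5.90 against 4.39, 4.45 and 4.60 and fell by 0.87 ± 0.25 (adjusted p = 0.0486). Nsdhl stood at 0.80, 0.71 and 1.18 against -0.19, -0.49 and -2.26. The last IFN-beta array was far below the others, the difference of -1.88 had the widest error of all members (SE 0.50, adjusted p = 0.0371), and against control 3 it did not pass (-2.16, adjusted p = 0.157). A second Nsdhl probe was at -0.82 ± 0.23. Nsdhl also did not pass with quantile normalization, the deposited log2 values or the replicate block (adjusted p = 0.0502, 0.0514 and 0.0633). The same held with a trended, robust variance model in limma (adjusted p = 0.0908).

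Sc5d, a desaturase late in the route, stood at 3.18, 3.08 and 3.91 against 2.56, 2.46 and 2.64 and fell by 0.84 ± 0.24 (adjusted p = 0.0475), while its second probe was at -2.13 ± 0.18. Dhcr7, the reductase that completes one branch to cholesterol, stood at -0.10, -0.24 and 0.56 against -0.75, -0.68 and -0.68. The groups did not overlap, but the difference of -0.77 missed the threshold (adjusted p = 0.0528) and passed against control 3 (-1.26, adjusted p = 0.0151). Hsd17b7, the ketone reductase that follows Nsdhl, stood at 2.40, 2.31 and 3.24 against 2.17, 2.08 and 2.32, a difference of -0.46 (adjusted p = 0.249) that was -1.05 against control 3 (adjusted p = 0.0337). Ebp, the isomerase between these steps, stood at 4.81, 4.82 and 5.27 against 4.93, 5.0025 and 5.21. It overlapped fully, at 0.08 ± 0.19 (adjusted p = 0.799), and took the other sign against control 3 (-0.23) and with several normalizations.

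Among the control genes Srebf2 and Insig1 fell, and Insig2, Scap, Mbtps1 and Mbtps2 did not pass. Srebf2, the gene of SREBP2 itself, stood at 2.11, 2.03 and 2.36 in controls and 1.34, 1.48 and 1.44 with IFN-beta. The groups were well apart, and it fell by 0.75 ± 0.17 (1.68-fold, adjusted p = 0.0194), with -0.94 against control 3 (adjusted p = 0.0412). A second Srebf2 probe was at -0.09 ± 0.26 (adjusted p = 0.823 over all probes), so the fall was seen with 1 of 2 probes. The mean of both probes, at -0.42, did not pass (adjusted p = 0.168). Insig1, the INSIG whose own gene is switched on by SREBP, stood at -0.26, -0.36 and 0.25 against -0.72, -1.14 and -0.90. It fell by 0.80 ± 0.22 (adjusted p = 0.0394). Insig1 did not pass with quantile normalization, the deposited log2 values or the replicate block (adjusted p = 0.0544, 0.0650 and 0.0509).

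Insig2, the form that does not depend on SREBP in the same way, stood at 2.02, 2.06 and 2.23 against 1.76, 1.68 and 1.88. All IFN-beta arrays were lower, but the difference of -0.34 did not pass (adjusted p = 0.167) and its other probes were both at 0.01. Scap stood at 3.11, 3.15 and 3.41 against 3.06, 3.04 and 3.31, with overlapping groups and a difference of -0.09 ± 0.17 (adjusted p = 0.753). Mbtps1, the site-1 protease, stood at 3.91, 4.01 and 4.03 against 3.77, 3.74 and 3.76. Its arrays did not overlap, at -0.22 ± 0.15 (adjusted p = 0.309). Mbtps2, the site-2 protease, stood at 1.502, 1.51 and 2.06 against 1.65, 1.63 and 1.82, which left a difference of 0.01 ± 0.20 (adjusted p = 0.982), and -0.36 against control 3 (adjusted p = 0.344).

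The transport genes parted. Stard4, a soluble carrier that moves cholesterol between membranes and is itself a target of SREBP2, stood at 1.71, 1.60 and 2.32 against 0.40, 0.51 and 0.26. It fell by 1.49 ± 0.22, 2.80-fold (adjusted p = 0.00414), and by 1.93 against control 3 (adjusted p = 0.00533), with its second probe at -1.16. Lrp8, a lipoprotein receptor that also binds reelin, stood at -1.47, -1.36 and -0.91 against -0.31, -0.41 and -0.92. Control 3 lay just above the lowest IFN-beta array, and the difference of 0.70 ± 0.24 did not pass (adjusted p = 0.0745). Lrp8 probes were at 1.20, 0.92 and -0.26 beside the one shown, and the first 2 of these passed over all probes.

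Over all 58 tested probes of the members, 46 were below 0, 27 were called lower (against 7.82% of all probes tested) and 2, both of Lrp8, higher (against 13.6%). Of the 16 genes that fell, 15 had every tested probe below 0, and Lss was the exception.

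Control 3 was high on these genes, which widens the difference from IFN-beta. It was the highest of the 6 arrays for 24 of 27 members, against 33.0% of all genes. The same held for all 16 that fell, but for these the highest array had to be a control, so the 33.0% is no measure for them. Control 3 exceeded the mean of controls 1 and 2 by a median of 0.66 for the members and 0.35 for all genes. The median level of the 27 genes was 2.40, 2.31 and 3.24 on controls 1, 2 and 3, and 2.06, 2.08 and 1.88 with IFN-beta. For 24 of 27 members every IFN-beta array was below control 3, against 41.5% of all genes. Against control 3 alone 17 members fell and none rose (4.31% and 5.21% of all genes), with a median of -1.24 against -0.10 for all genes. The fit against control 3 uses the same IFN-beta arrays and the control that was highest for all 16 members that fell. It is therefore no separate check of those 16. Mvk, Mvd, Fdps, Sqle, Lss, Cyp51, Msmo1, Sc5d and Insig1 ran from -1.91 (Cyp51) to -1.14 (Mvk) against control 3, with adjusted p from 0.0121 to 0.0367. Without control 3, 16 fell and 2, Lbr and Lrp8, rose (15.1% and 33.0% of all genes), with a median of -0.59 against 0.21. Controls 1 and 2 differed by a median of 0.08 over all genes, and with their mean as 1 sample 8 members fell, with a median of -0.91.

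Markers of other cells also moved with the arrays. The fibroblast list had a median level of 3.72 and 4.01 on controls 1 and 2, of -5.40 on control 3 and of -5.06 to -3.77 with IFN-beta. The log2 of its summed level ranged from 0.67 to 9.12 in controls and from 1.70 to 1.87 with IFN-beta, and on control 3 Col3a1, Dcn, Lum, Pdgfra and Pdgfrb were not above background. Of the 7 fibroblast markers tested none passed with all controls, 2 passed as higher against control 3 and all 7 as lower without control 3 (median -6.00). On control 3 the log2 summed level of the fibroblast list was 0.67, below that of every IFN-beta array. The part of these markers in the members' result was not tested. Of the 6 erythroid markers, 4 were above background on controls 1 and 2 and 1 or 2 elsewhere, with a log2 summed level of -0.47 to 7.08 in controls and 0.71 to 1.24 with IFN-beta, and the 1 tested, Hba-a1, did not pass with all controls (-3.53), was higher against control 3 (1.73) and lower without it (-6.16). Neutrophil markers were all above background, 7 of 10 rose (5 against control 3), and their log2 summed level was 8.86 to 9.27 in controls and 9.74 to 10.03 with IFN-beta; their part in the result was not tested. Neither was that of the dendritic cell list (2 of 5 tested fell, 3 against control 3, and 1 rose; log2 summed level 5.34 to 5.80 against 5.19 to 5.54; Xcr1 above background on no array). The proliferation list, with 1 of 12 higher (none higher and 1 lower against control 3, 8 higher without it), had median levels of 3.33, 3.29 and 4.16 in controls and 3.96 to 4.13 with IFN-beta, and its part was not tested either. The list of B, T and NK cell markers had 1 of 6 tested genes lower and 1 higher, at log2 summed levels of 1.71 to 2.23 and 1.83 to 2.18, with Cd79a and Ncr1 above background on no array. Among the 10 monocyte and macrophage markers 2 fell and 1 rose, with log2 summed levels of 9.27 to 9.85 and 9.72. With all controls, 8.02% of all genes fell and 11.8% rose, and without control 3, 15.1% fell and 33.0% rose. The shares against control 3 alone are given above.

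**Figure D3:**
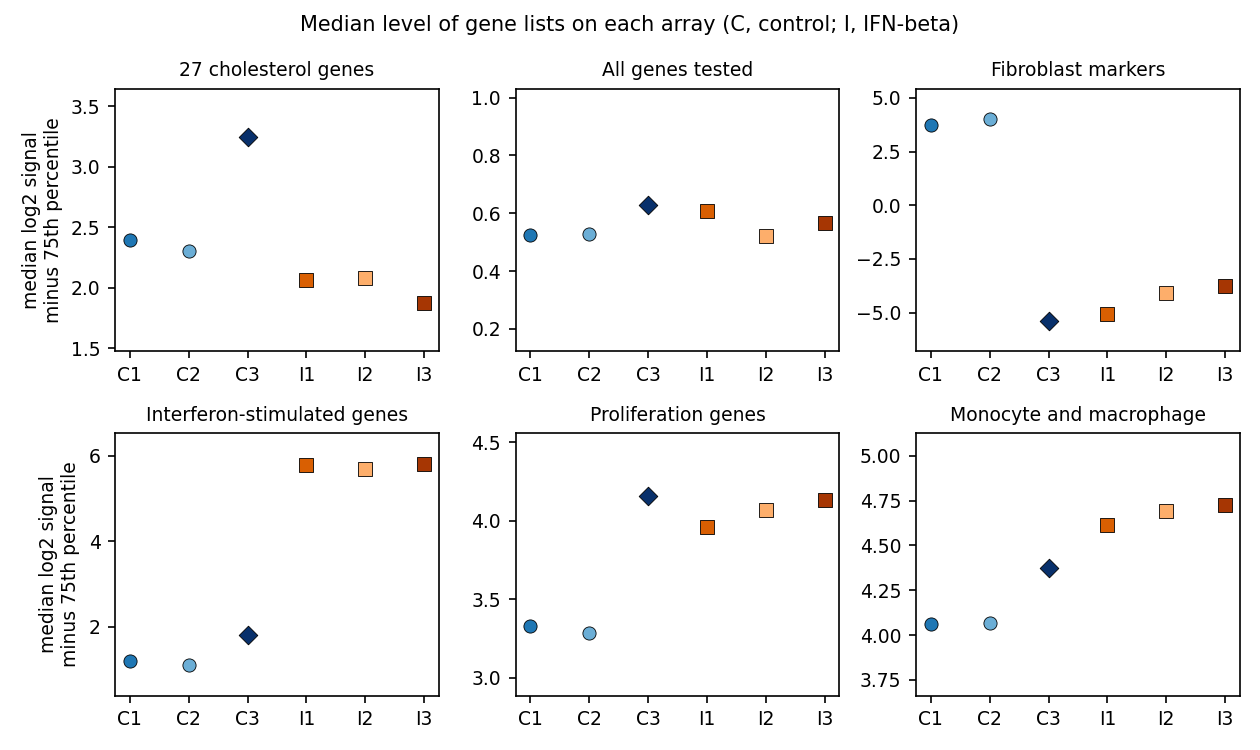
Median level of 6 gene lists on each array (y axis, log2 signal relative to the 75th percentile; x axis, controls 1 to 3 and IFN-beta arrays 1 to 3; each panel has its own scale). The 27 cholesterol genes are at 3.24 on control 3 and at most 2.40 elsewhere, and fibroblast markers are at 3.72 and 4.01 on controls 1 and 2 only.

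None of the 4 tested enzymes of the oxysterol and bile acid routes passed as higher. Whether oxysterols, sterols through which interferon is known to act on SREBP2, had a part here was not tested. Ch25h, whose product is the best known of them in macrophages, stood at -0.29, 0.20 and -1.52 in controls and -1.57, -1.46 and -1.08 with IFN-beta. The groups overlapped through control 3, and the difference was -0.83 ± 0.41 (adjusted p = 0.189), or 0.15 against control 3 (adjusted p = 0.750). Cyp27a1, a mitochondrial sterol hydroxylase, stood at -2.19, -2.32 and -1.96 against -3.54, -3.33 and -3.09 and fell by 1.17 ± 0.19 (adjusted p = 0.00570), and by 1.37 against control 3 (adjusted p = 0.0243). Hsd3b7, of the bile acid route, was at -0.22 and Cyp46a1, a hydroxylase known from neurons, at 0.35, and neither passed (adjusted p = 0.447 and 0.572). Cyp7b1 was above background on controls 1 and 2 but not on every array of either group and was not tested. So 1 of 4 tested genes fell and none rose, beside 8.02% and 11.8% of all genes.

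LXR is the nuclear receptor that oxysterols switch on to export sterol. Of 8 genes of the receptors, their partners and targets 3 fell and none rose, beside 8.02% and 11.8% of all genes. Their median was -0.45, and 5 of 8 were below 0. Abcg1, an efflux target named after its value was seen, stood at 4.51, 4.25 and 4.48 against 4.91, 4.73 and 4.86. Its difference of 0.42 ± 0.16 went the other way and did not pass (adjusted p = 0.105). Abca1, the main exporter of cholesterol to lipoprotein, stood at 2.92, 2.57 and 0.72 against -0.89, -0.75 and -0.67. It fell by 2.84 ± 0.52 with all controls (adjusted p = 0.00925) but by 1.49 against control 3 (adjusted p = 0.0107), whose level lay closer to the IFN-beta arrays than to controls 1 and 2. Rxra, the partner of LXR, fell by 1.09 ± 0.15 (adjusted p = 0.00312), and by 1.11 against control 3 (adjusted p = 0.0272). Mylip, a ligase that removes lipoprotein receptors, fell by 0.68 ± 0.16 (adjusted p = 0.0258) but did not pass against control 3 (-0.73, adjusted p = 0.108).

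Fatty acid synthesis, the branch that is mainly under SREBP1, was also lower: 7 of 12 genes fell and none rose, beside 8.02% and 11.8% of all genes. Their median was -0.91, against 0.10 for all genes. All 12 were below 0 against control 3 too, as were 11381 of the 19503 genes tested. Scd2, a desaturase, stood at 4.98, 4.90 and 5.51 against 3.097, 3.19 and 3.12, and fell by 1.997 ± 0.20 (adjusted p = 0.000674), and by 2.38 against control 3 (adjusted p = 0.00224). Its relative Scd1 was not well above background on any IFN-beta array and was at least 167-fold lower (adjusted p = 0.000834), or at least 31.7-fold lower than on control 3, where it stood at 0.24 against 4.04 and 3.62 on controls 1 and 2. Acss2, which makes cytosolic acetyl-CoA, fell by 1.23 ± 0.16 (adjusted p = 0.00195), and by 1.29 against control 3 (adjusted p = 0.0185). Srebf1 itself was at -0.53 ± 0.16 and did not pass (adjusted p = 0.0514).

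Of 13 genes that take up, release, store or carry sterol, 2 fell and 2 rose, with a median of 0.02. Among all genes 8.02% fell and 11.8% rose. The endocytic receptor Lrp1 fell by 1.18 ± 0.20 (adjusted p = 0.00663) and the lipoprotein receptor Scarb1 by 1.05 ± 0.23 (adjusted p = 0.0196). Npc2, which hands cholesterol out of the lysosome, rose by 0.93 ± 0.20 (adjusted p = 0.0179), and Stard3, a tether of late endosomes named after its value was seen, by 0.85 ± 0.22 (adjusted p = 0.0361). Neither rise passed against control 3 (adjusted p = 0.154 and 0.315), while both falls did (adjusted p = 0.0229 and 0.0177).

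**Figure D4:**
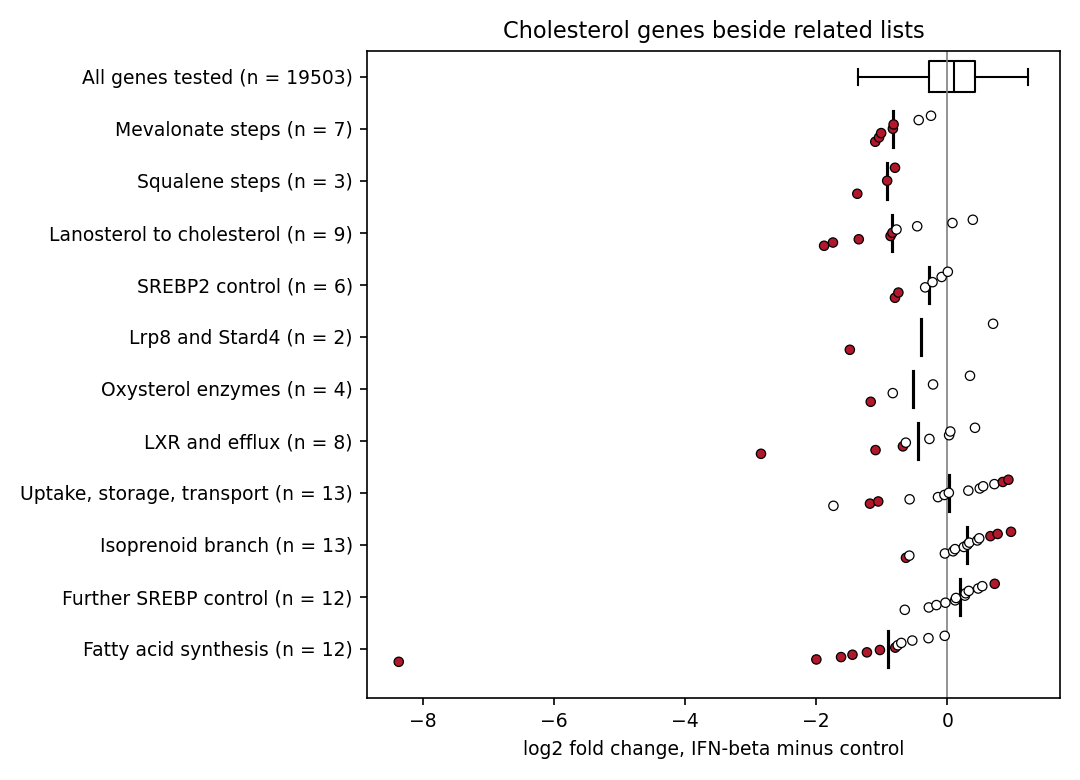
Log2 fold changes, IFN-beta minus control with all 3 controls (x axis), for the groups of cholesterol genes and the related lists (y axis); filled points passed an adjusted p of 0.05, open points did not, upright bars are medians, and the box of all genes shows quartiles with whiskers at the 5th and 95th percentiles. The 3 squalene genes all lie below -0.79; the point near -8.4 is Scd1, which was dim with IFN-beta, so its place is a fitted value.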

How the data were processed

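Gene expression of 3 control and 3 IFN-beta samples was read from 1-colour Agilent arrays, 1 per sample. The authors' software was Agilent Feature Extraction (12.0.3.1) per the file headers, and the deposited values are processed signal intensity per spot with no normalization between arrays. The deposited log2 values of the same arrays have unstated scaling, with limma named in the submitters' processing notes (column medians 4.80 to 4.82; r from 0.996 to 0.999 with the own array's log2 signal) and served as an alternative. Control spots and outlier spots (135 to 174 per array) were left out, spots of a probe averaged, log2 taken and the array's 75th percentile subtracted. No spot was saturated. Probes well above background on every array of 1 or both groups were tested (29797), and a gene was shown by its brightest probe. Tests used lmFit and eBayes of limma 3.58.1 under R 4.3.3 (files read by data.table, release 1.17.8), with Benjamini-Hochberg adjustment over 19503 genes and a threshold of 0.05, and the script was tested on simulated data. In the fit against control 3, the lone control is assumed to vary like the IFN-beta arrays. For a gene dim throughout a group the fold is a bound against the lowest signal well above background. Symbols came from the files and RefSeq (GRCm38.p6, names and promoters only); 32994 probes were named through an accession and 13387 kept the file's name. Probe positions are those of the files (mm9).

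The members and lists were chosen with earlier results of these data known. Every member was named, as was every tested enzyme of the oxysterol and bile acid routes. Of the other related lists, up to 3 genes with the lowest p among those that passed were named, and the first of the lesser direction. Controls 1 and 2 differed by a median of 1.00 spot error over 285 probes, against 1.76 to 2.31 between IFN-beta arrays. Since the labels do not say whether they came from 1 culture, they entered as 2 samples, with their mean as 1 sample as an alternative. The number of arrays limits the precision. Alternatives covered background correction, scaling, filters, probe choice, variance model, slide, replicate number and single arrays.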

Additional observations from a re-analysis of the deposited data

How the results depend on the processing

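The members stayed below 0 in the median under all 21 alternatives, and called counts moved more, for causes that were not tested. Not all alternatives were separate checks of the median. The trended, robust variance model, the replicate block and the changed filters on dim probes kept the same member differences (median -0.80). Slide as a block and within slide 1 gave 1 and the same estimate (-0.82). The number of genes changed, 3864 in the main setting (2299 higher, 1565 lower), was 1697 with no filter on dim probes, 12734 with array weights, 1040 with slide as a block, 369 within slide 1, 1992 with controls 1 and 2 averaged, 1858 against control 3 alone and 1827 to 9386 without 1 array. The number of members lower was 2 with no filter, 1 with slide as a block, 0 within slide 1, 10 with the replicate block, 8 with controls 1 and 2 averaged and 3 to 16 without 1 array; other settings gave 13 to 20. Members higher were 2 with array weights and 0 to 2 without 1 array. Their median was -1.24 against control 3 alone. Spike-in scaling moved the median of all genes from 0.10 to -0.22 and the share of higher among called genes from 59.5% to 25.5% (1068 higher, 3122 lower), and normexp with the 75th percentile moved that share to 69.7% (3760 and 1638). Replicate numbers were not taken as pairs: correlations of deviations for same-numbered samples were 0.0718, 0.0213 and 0.0720. Each sample correlated best with its own number. All values were near 0, however, with other pairs from -0.0907 to 0.0144, so they cannot show whether samples were paired.

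Members that did not pass changed sign in places, and the cause was not tested. Ebp was -0.064 with quantile normalization, -0.013 with normexp and the 75th percentile, -0.037 with normexp and quantiles, -0.25 with spike-in scaling, -0.0086 in the deposited table, -0.040 with the slide block and within slide 1, -0.23 against control 3 and -0.0019 to 0.23 over the fits without 1 array (-0.0013 without control 1). In the same order Mbtps2 was -0.049, -0.0075, -0.32 with spike-in scaling, -0.026 in the deposited table, -0.046 for the slide settings, -0.084 with controls 1 and 2 averaged, -0.36 against control 3 and -0.087 to 0.19 without 1 array (-0.080 without control 2, -0.052 without IFN-beta 3). Ggps1 was 0.053 in both slide settings, Scap 0.010 with array weights and -0.17 to 0.0060 without 1 array, and Lbr -0.10 against control 3. Of the 62 member probes, 4 (1 of Sqle, 3 of Mbtps2) were too close to background to be tested.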

Other observations

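In the side branch from farnesyl diphosphate to prenyl groups, dolichol and ubiquinone, 1 of 13 genes fell and 3 rose, with a median of 0.31. Among all genes 8.02% fell and 11.8% rose. Pdss1, which builds the ubiquinone tail, stood at -0.26, -0.24 and 0.37 in controls and 0.85, 0.78 and 1.16 with IFN-beta and rose by 0.97 ± 0.22 (limma, adjusted p = 0.0224). Coq2, which attaches that tail, rose by 0.66 ± 0.16 (adjusted p = 0.0260). Fntb, the beta subunit of farnesyltransferase, rose by 0.77 ± 0.18 (adjusted p = 0.0224), while Fnta, the alpha subunit shared with the geranylgeranyl enzyme, fell by 0.63 ± 0.17 (adjusted p = 0.0380). None of these 4 passed against control 3 alone (adjusted p from 0.0673 to 0.210).

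Of 12 further genes that act on SREBP or on the turnover of sterol enzymes, 1 rose and none fell, with a median of 0.20. Among all genes 11.8% rose and 8.02% fell. Fbxw7, the ubiquitin ligase subunit that marks nuclear SREBP for destruction, rose by 0.72 ± 0.20 (adjusted p = 0.0397), but not against control 3 (0.51, adjusted p = 0.290). Marchf6, a ligase for squalene epoxidase and named after its value was seen, was at -0.65 (adjusted p = 0.0744), and fell by 1.10 against control 3 (adjusted p = 0.0242).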
